A study of Mus musculus with 6 samples.

Results

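The Schlafen genes described here are 7 mouse genes, *Slfn1*, *Slfn2*, *Slfn3*, *Slfn4*, *Slfn5*, *Slfn8* and *Slfn9*, out of 29097 rows in the deposited gene table. They were selected by gene name. The only measured value in the selection, the highest mean FPKM among rows that repeat a name, played no part, since 0 of the 7 names repeat. The family was, however, put forward with results of this same contrast known, so fold changes and calls of its members are given below as a description and without a test. Neutrophils (CD45+CD11b+Ly6G+) were sorted from peripheral blood (PB) of C57BL/6 wild type male mice, 8 weeks of age, either after 14 d of ligation-induced periodontitis (LIP), in which bilateral maxillary and mandibular second molars carried silk ligatures, or after the same period without ligatures (Ctrl). The labels name the ligated group Lig. Each group comprised 3 Smart-seq2 libraries, and each library was made from the pooled neutrophils of 5 mice, so the spread between libraries is one between pools. Smart-seq2 primes cDNA at the poly(A) tail, copies it to full length and amplifies it by PCR without molecular identifiers.

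Schlafen proteins are known from mice as regulators of immune cell growth and from several mammals as restriction factors against viruses. Short members (*Slfn1*, *Slfn2*) carry the core Schlafen domain, intermediate members (*Slfn3*, *Slfn4*) a longer form of it, and long members (*Slfn5*, *Slfn8*, *Slfn9*) add a helicase-like region. Type I interferon and Toll-like receptor ligands are known inducers of the family in myeloid cells, and the core domain of several members binds or cuts tRNA. In blood and marrow, *Slfn2* is known for keeping T cells and monocytes quiescent, and *Slfn4* for its induction in activated macrophages and suppressive myeloid cells.

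The 7 genes form a single cluster on chromosome 11 (GRCm38, 82951349 to 83215154), 263.806 kb from end to end. In the order of the chromosome these are *Slfn5* (82951349 to 82961906), *Slfn9* (82978390 to 82991830), *Slfn8* (83002158 to 83020810), *Slfn2* (83065112 to 83070678), *Slfn1* (83116849 to 83122670), *Slfn4* (83175186 to 83190216) and *Slfn3* (83191330 to 83215154). *Slfn9* and *Slfn8* lie on the minus strand, and the other 5 members on the plus strand. Promoter windows of 300 bases, from 250 before to 50 after the annotated start, were found for 7 of 7 members in the RefSeq table (GRCm38.p6), with 2 starts for *Slfn8*. The *Slfn5* window (82951852 to 82952151) lies wholly within the gene span given above, as its RefSeq start is downstream of the first base of that span. The windows of 5 members are shown because they hold the contrasts that the results below refer to: the member with the largest fold change (*Slfn4*), the most abundant member (*Slfn2*), and the 3 members with an interferon-stimulated response element (*Slfn5*, *Slfn8*, *Slfn9*). Capitals mark matches to that element or to its core.

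Slfn4, chr11:83174936-83175235, plus strand: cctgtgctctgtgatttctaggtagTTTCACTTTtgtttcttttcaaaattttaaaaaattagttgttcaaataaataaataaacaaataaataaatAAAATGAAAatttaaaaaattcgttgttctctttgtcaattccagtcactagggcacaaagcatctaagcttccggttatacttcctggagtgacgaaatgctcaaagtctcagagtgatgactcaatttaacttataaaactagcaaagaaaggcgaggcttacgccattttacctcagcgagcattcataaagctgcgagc
Slfn2, chr11:83064862-83065161, plus strand: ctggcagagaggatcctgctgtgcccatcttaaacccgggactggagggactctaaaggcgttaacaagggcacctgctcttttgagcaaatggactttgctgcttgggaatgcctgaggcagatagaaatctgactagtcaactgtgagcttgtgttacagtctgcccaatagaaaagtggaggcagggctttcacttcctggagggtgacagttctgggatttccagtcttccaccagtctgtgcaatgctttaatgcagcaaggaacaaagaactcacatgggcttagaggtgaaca
Slfn5, chr11:82951852-82952151, plus strand: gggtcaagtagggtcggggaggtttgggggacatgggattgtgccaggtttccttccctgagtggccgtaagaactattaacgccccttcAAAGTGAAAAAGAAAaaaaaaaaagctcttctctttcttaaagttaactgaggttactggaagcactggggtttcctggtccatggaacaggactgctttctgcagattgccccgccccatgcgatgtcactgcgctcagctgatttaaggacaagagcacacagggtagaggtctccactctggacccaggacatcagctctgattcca
Slfn8, chr11:83020761-83021060, minus strand: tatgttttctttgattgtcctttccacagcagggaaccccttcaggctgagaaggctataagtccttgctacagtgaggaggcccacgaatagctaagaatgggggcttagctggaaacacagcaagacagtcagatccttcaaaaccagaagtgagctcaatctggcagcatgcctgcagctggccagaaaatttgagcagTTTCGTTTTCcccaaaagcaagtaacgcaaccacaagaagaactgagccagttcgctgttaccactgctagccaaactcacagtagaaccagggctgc
Slfn9, chr11:82991781-82992080, minus strand: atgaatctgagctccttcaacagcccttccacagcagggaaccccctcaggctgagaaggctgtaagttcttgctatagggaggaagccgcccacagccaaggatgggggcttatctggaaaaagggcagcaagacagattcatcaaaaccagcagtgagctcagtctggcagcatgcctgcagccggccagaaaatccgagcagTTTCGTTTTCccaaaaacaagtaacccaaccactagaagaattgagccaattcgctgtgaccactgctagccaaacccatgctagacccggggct

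The element was searched on both strands as GAAA, any 2 bases and GAAA, and its core as AAANNGAAA, which lies within every match of the whole element. Among 32851 promoter windows of 300 bases, 3.44% held the whole element and 10.6% the core. *Slfn5* held GAAAAAGAAA at -155 to -146 from the start. *Slfn8* and *Slfn9* held GAAAACGAAA on the opposite strand at -48 to -39 and at -45 to -36. These last windows resemble each other closely, with 80.9% identical letters over 309 aligned columns, whereas the next pair of members (*Slfn1* and *Slfn8*) reached 53.0%. *Slfn4* held the core alone, at -225 to -217 and at -153 to -145, and *Slfn1* held it at -32 to -24. No match to either was found in the windows of *Slfn2* and *Slfn3*. A gamma-activated site, searched as TTCNNNGAA, was present in 8.30% of all windows and in none of the members' windows, and the PU.1 motif GAGGAAG was present in 13.6% of all windows and among the members in *Slfn9* alone. A match describes letters and not binding, and the lack of one covers only these letters in these windows.

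Total counts per library ranged from 52186555 to 57262379. Libraries differed in their make-up by group, and every level below is to be read beside this. Haemoglobin genes took 14.6% to 15.0% of counts in Ctrl and 1.55% to 1.61% in LIP. The summed FPKM of the 10 B cell markers, all present in the table, was 10599 to 11523 in Ctrl and 1772 to 1788 in LIP, and that of 11 T cell markers was 381 to 431 and 62.9 to 74.1. The 21 mature neutrophil markers summed to 16730 to 20092 FPKM in Ctrl and to 56552 to 61628 in LIP, a ratio of 3.15. *S100a8* alone, one of these markers, was at 6058.5 to 7749.9 FPKM in Ctrl and 20600.1 to 23540.5 in LIP. The most abundant markers therefore weigh most in that sum. *Ly6g*, the gene of the sorting marker, was at 18.2 to 19.5 and 37.8 to 48.3 FPKM. The 9 monocyte markers summed to 172 to 190 and 293 to 324 FPKM, and the 6 platelet markers to 808 to 1047 and 1714 to 2006 FPKM. Smaller differences were seen for 9 immature neutrophil markers (1806 to 2120 in Ctrl and 2479 to 2653 FPKM in LIP). The 7 NK cell markers summed to 488 to 575 in Ctrl and 416 to 456 FPKM in LIP. No marker of any list was at 0 in all libraries. In sorted bulk samples, fewer cells of a type and less RNA per cell cannot be told apart, and the part of these cell types in the Schlafen values was not tested.

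Schlafen transcripts took a larger part of the reads in LIP than in Ctrl, but no member was called higher relative to mature neutrophil markers. With libraries scaled on those markers, *Slfn2*, *Slfn5* and *Slfn8* were called lower, as were 9354 of all 10440 genes tested. *Slfn4* (log2 fold change 0.50, SE 0.236) and *Slfn1* (0.02, SE 0.0933) were called in neither direction. Reads on the 7 genes made up 0.123%, 0.112% and 0.121% of all counts in Ctrl libraries 1, 2 and 3, and 0.312%, 0.309% and 0.314% in LIP libraries 1, 2 and 3. Of the 7 members, 5 reached the mean of 1 FPKM needed for testing (10440 genes in all), each of them in every library, and 2, *Slfn9* and *Slfn3*, did not. By edgeR's quasi-likelihood fit with TMM normalization (adjusted p under 0.05), all 5 were called higher in LIP, beside 26.5% of all genes tested. The same 5 had every LIP library above every Ctrl library, beside 30.3% of all genes tested. No member was lower, beside 27.2% of all genes tested. These counts come from the contrast that was known when the family was put forward, and nothing is read from them.

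**Figure D1:**
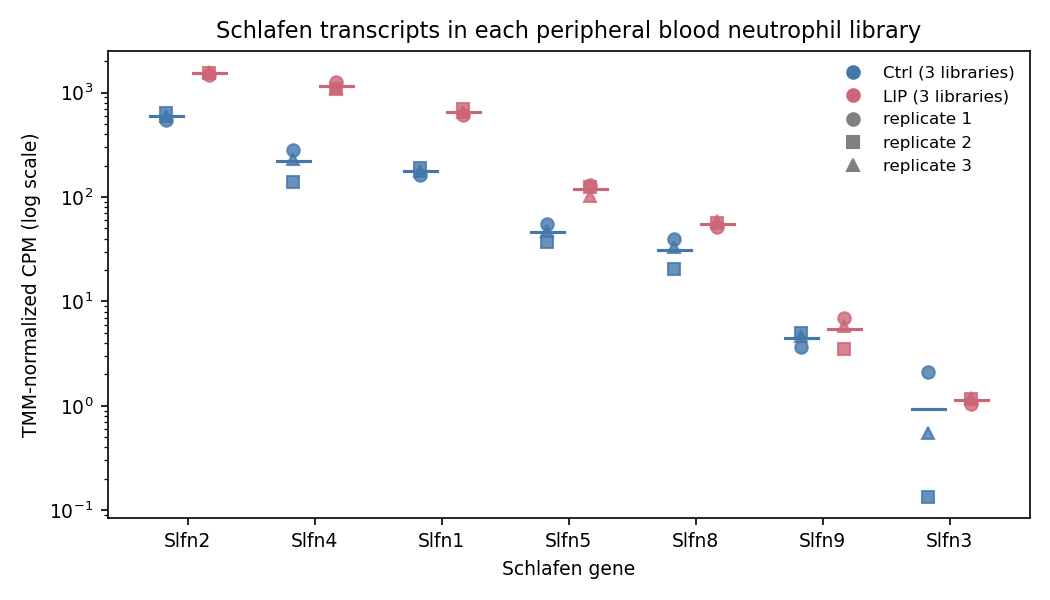
TMM-normalized CPM of the 7 Schlafen genes in each of the 6 libraries, on a log axis; each point is 1 library (a pool of 5 mice), with circles, squares and triangles for replicates 1, 2 and 3, blue for Ctrl and red for LIP, and each dash is the mean of 3. *Slfn2*, *Slfn1*, *Slfn4*, *Slfn5* and *Slfn8* sit higher in the LIP libraries, while points of *Slfn9* and *Slfn3* overlap between groups.

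Among these genes *Slfn4* differed most. Its TMM-normalized level was 285, 138 and 233 CPM (counts scaled by library total and TMM factor) in Ctrl and 1259, 1081 and 1108 CPM in LIP. The lowest LIP library exceeded the highest Ctrl library 3.79 times, although the Ctrl libraries themselves spanned 2.06 times. The fitted fold was 5.25 (log2 fold change 2.39, SE 0.218), which placed *Slfn4* 61st from the top among 10440 genes.

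Both short members followed. *Slfn1*, which is known to arrest the cell cycle before S phase when expressed in thymocytes or fibroblasts, was at 162, 190 and 176 CPM in Ctrl and at 612, 699 and 659 CPM in LIP. Its libraries stood close together within each group, and its fitted fold was 3.73 (log2 fold change 1.901, SE 0.103). *Slfn2*, a guard of quiescence that also shields tRNA from cleavage in activated T cells, was at 551, 641 and 602 CPM in Ctrl and at 1490, 1548 and 1576 CPM in LIP. The *Slfn2* fold was 2.57 (log2 fold change 1.36, SE 0.0851), the smallest standard error among the 5 members tested.

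The long members spanned a wider range. *Slfn5*, a nuclear protein that represses transcription of interferon-responsive genes in some cells, was at 54.8, 36.8 and 47.3 CPM in Ctrl and at 130, 125 and 102 CPM in LIP. Its fold of 2.56 (log2 fold change 1.36, SE 0.167) was close to that of *Slfn2*, at a much lower level. *Slfn8*, annotated as a tRNA-binding endoribonuclease, was at 39.9, 20.3 and 33.1 CPM in Ctrl and at 52.1, 56.4 and 58.3 CPM in LIP. The groups did not overlap for *Slfn8*, but the gap was narrow, as the lowest LIP library was 1.31 times the highest Ctrl library. In FPKM, which uses no TMM factor, the gap was narrower still, with 10.1 in Ctrl library 1 and 10.4 in LIP library 1. With a fold of 1.79 (log2 fold change 0.84, SE 0.223), *Slfn8* had the smallest difference of the 5, and its call was lost when library totals replaced TMM (log2 fold change 0.51) or when limma was used on log2(FPKM + 1) (0.52) or log2(FPKM + 0.1) (0.58).

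*Slfn9* and *Slfn3* were scarcely expressed. *Slfn9*, the closest relative of *Slfn8* by promoter sequence, was at 3.65, 5.02 and 4.65 CPM in Ctrl and at 6.87, 3.49 and 5.83 CPM in LIP, and its LIP libraries lay on both sides of the Ctrl libraries. *Slfn3*, best known from T cells and gut epithelium, had 126, 8 and 32 reads in Ctrl and 52, 58 and 55 reads in LIP. All 3 LIP libraries thus fell between the highest and the lowest Ctrl library, which differed 15.7 times in CPM. Fitted without the filter on low values, neither was called (log2 fold change 0.31, SE 0.378, for *Slfn9*, and 0.31, SE 1.01, for *Slfn3*), and with such errors a fold like that of *Slfn2* was not detectable for *Slfn3*.

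The remaining rows named Slfn in the table were also low. *Slfn10-ps* (83028130 to 83040042, minus strand), a pseudogene between *Slfn8* and *Slfn2*, was at 11.5, 8.73 and 8.95 CPM in Ctrl and at 8.48, 8.51 and 12.5 CPM in LIP. It did not pass edgeR's test (log2 fold change 0.01, SE 0.286, adjusted p = 0.975), and its groups overlapped. *Slfn14* (83275110 to 83286726, minus strand), a ribosome-associated endoribonuclease of the red cell and platelet lineages, ranged from 0.471 to 2.69 CPM in Ctrl and from 2.44 to 6.09 CPM in LIP, also with overlap. *Slfnl1*, a Schlafen-like gene on chromosome 4, had 2 reads in 1 LIP library and 0 elsewhere. *Slfn5os*, which lies antisense to *Slfn5*, had 1 read in a Ctrl library and 0 elsewhere.

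Levels of different genes were compared per length, as FPKM. In Ctrl, *Slfn2* led with 366 ± 21.6 FPKM (SD, n = 3). *Slfn1* followed at 96.1 ± 6.08 and *Slfn4* at 56.5 ± 20.0, and these 3 did not overlap. *Slfn8* at 7.77 ± 2.60 and *Slfn5* at 7.47 ± 1.57 could not be ordered beyond their spread, nor could *Slfn9* at 0.754 ± 0.110 and *Slfn3* at 0.280 ± 0.320. In LIP, *Slfn2* stood at 761 ± 25.3 FPKM, *Slfn1* at 290 ± 20.5, *Slfn4* at 239 ± 18.7, *Slfn5* at 15.4 ± 1.91, *Slfn8* at 11.2 ± 0.694, *Slfn9* at 0.743 ± 0.236 and *Slfn3* at 0.269 ± 0.0179 (SD, n = 3 each). All neighbours in that order were separated in LIP. Against all 29097 rows ordered by mean FPKM, *Slfn2* moved from place 116 in Ctrl to place 67 in LIP, *Slfn1* from 435 to 178 and *Slfn4* from 736 to 217.

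Summed over the family, FPKM came to 535 ± 6.36 in the Ctrl libraries and 1318 ± 23.7 in the LIP libraries (SD, n = 3 for both). *Slfn2* contributed 68.4% ± 3.61 of that sum in Ctrl but 57.8% ± 0.979 in LIP (SD, n = 3 for both). The part of *Slfn1* was 18.0% ± 1.03 and 22.0% ± 1.21, and that of *Slfn4* 10.6% ± 3.81 and 18.1% ± 1.76 (SD, n = 3 each). *Slfn4* thus took a larger part of the family in LIP, and its range there (16.9% to 20.2%) lay above that in Ctrl (6.55% to 14.1%). The other 4 members together were minor, none above the 1.91% that *Slfn8* reached in Ctrl library 1.

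**Figure D2:**
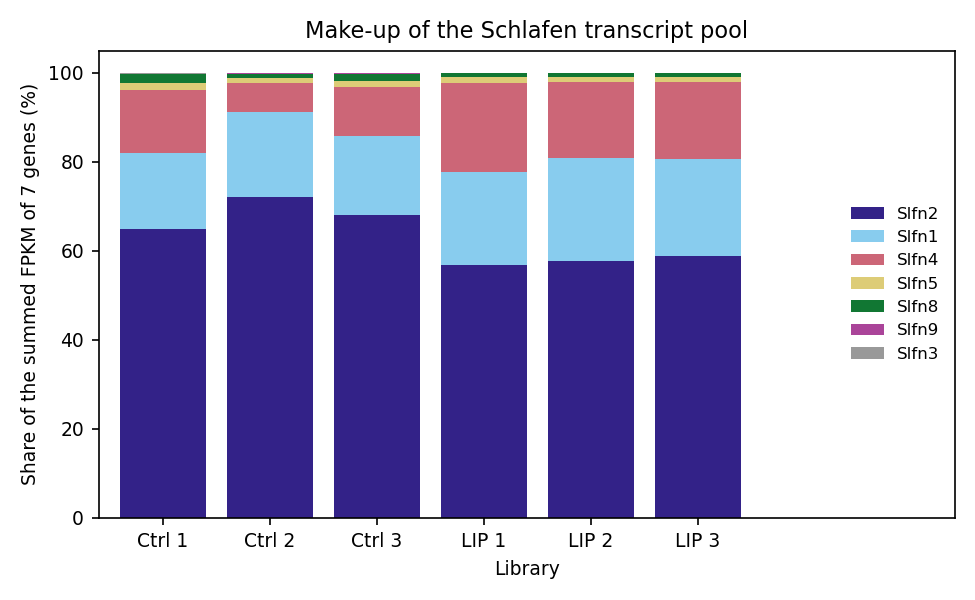
Share of the summed FPKM of the 7 Schlafen genes (percent, vertical axis) taken by each gene, 1 bar for each library. *Slfn2* is the largest segment in all 6 bars, and the *Slfn4* segment is between 6.55% and 14.1% in Ctrl and between 16.9% and 20.2% in LIP.

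Within the Ctrl group the 5 members tested fell into 2 patterns. *Slfn4*, *Slfn8* and *Slfn5*, whose longest annotated transcripts have 3958, 4011 and 5979 bases, were highest in replicate 1 and lowest in replicate 2. *Slfn1* and *Slfn2*, at 1864 and 1664 bases, were highest in replicate 2 and lowest in replicate 1. Among the members not tested, *Slfn3* (2834 bases) had the first order and *Slfn9* (5769 bases) the second. From Ctrl library 1 to Ctrl library 2, *Slfn4* changed by -1.04 and *Slfn8* by -0.94 on the log2 CPM scale, and only 1.55% and 2.41% of all genes tested had lower values. Here, and in the SDs and correlations of log2 CPM below, 1 was added to CPM before the log. *Slfn1* and *Slfn2* changed by 0.23 and 0.22. Over all genes with a length (99.9% of those tested), the median change also went from positive to negative with length, but stayed small. In the median, 3710 genes whose longest transcript is under 2000 bases differed by 0.20 between these libraries, 3840 genes of 2000 to under 4000 bases by -0.04 and 2881 genes of 4000 bases or more by -0.24. Between LIP libraries 1 and 2 these medians were 0.05, 0.03 and -0.04. *Slfn4* belongs to the middle class and *Slfn8* to the longest, and both changed by more than their class medians. The spread of genes around those medians was not examined. *Slfn5*, the longest member tested, changed by -0.56. Mitochondrial genes took 3.40% of counts in Ctrl library 1, 3.83% in Ctrl library 3 and 4.24% in Ctrl library 2, against 2.13% to 2.31% in LIP. The split by length was set up with the values already seen, and its part in the spread of the Schlafen genes was not tested. Leaving out Ctrl library 2 gave log2 fold changes of 2.17 for *Slfn4* and 0.63 for *Slfn8*, both still called higher.

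The SD of log2 CPM over the 3 Ctrl libraries was 0.54 for *Slfn4*, 0.49 for *Slfn8*, 0.28 for *Slfn5*, 0.11 for *Slfn1* and 0.11 for *Slfn2*. The median over all genes tested was 0.21, and 95.4% of them had a smaller SD than *Slfn4*. In LIP the SD was 0.12 for *Slfn4* and 0.08 for *Slfn8*, and 25.2% and 14.8% of genes had a smaller one. *Slfn2* was among the steadiest genes in LIP, with an SD of 0.04 that only 4.502% of genes undercut.

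**Figure D3:**
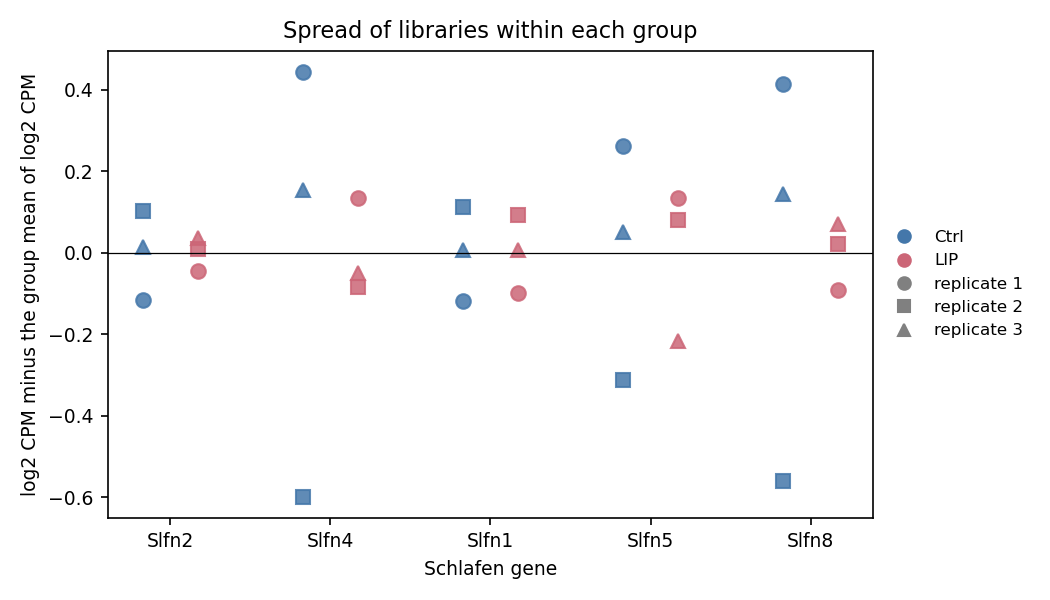
Deviation of each library's log2 CPM from its group mean for the 5 Schlafen genes tested; circles, squares and triangles are replicates 1, 2 and 3, blue for Ctrl and red for LIP. For *Slfn4* and *Slfn8* the Ctrl libraries lie far apart (SD 0.54 and 0.49), with replicate 2 lowest, whereas the LIP libraries lie closer together (SD 0.12 and 0.08). These SDs were taken with 1 added to CPM, and the points without it.

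Fold changes depended on what the libraries were scaled to. Over all genes tested, the median log2 fold change was -0.09 with TMM and -0.42 with library totals, and 49.4% and 31.2% of all calls were higher in LIP. With scaling on the 21 mature neutrophil markers, which themselves differ 3.15 times between groups, that median was -1.97, and the log2 fold change was 0.50 for *Slfn4*, 0.02 for *Slfn1*, -0.51 for *Slfn2*, -0.53 for *Slfn5* and -1.05 for *Slfn8*. Under that scaling 0 members were higher and 3 (*Slfn2*, *Slfn5* and *Slfn8*) were lower, while 44 genes in all were higher and 9354 lower. Because such a scaling shifts all genes by nearly the same amount, order and distance from the typical gene could hardly change. Nothing is read from them. With TMM, *Slfn4* lay 2.49 above the median of all genes tested, *Slfn1* 1.995, *Slfn2* 1.46, *Slfn5* 1.45 and *Slfn8* 0.93. With neutrophil scaling the distances were 2.48, 1.998, 1.46, 1.44 and 0.92 for the same genes.

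**Figure D4:**
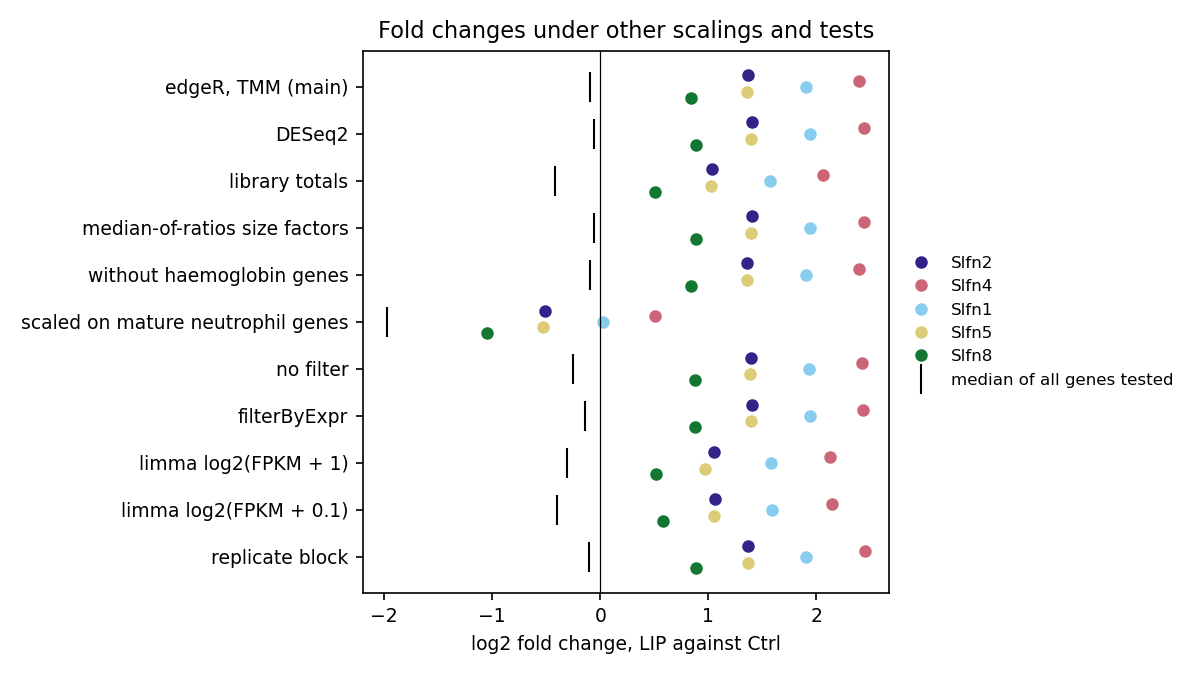
Log2 fold change (LIP against Ctrl, horizontal axis) of the 5 Schlafen genes tested under each scaling, filter or test (rows); the black bar in each row is the median of all genes tested. *Slfn4* is the rightmost point in every row, and only scaling on mature neutrophil genes puts *Slfn2*, *Slfn5* and *Slfn8* below 0.

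Because the members adjoin one another, the genes around them were examined, and position had no part in choosing the members. Within 500 kb of the cluster the table lists 45 other genes, of which 21 were tested. Of these 8 were higher in LIP (beside 26.5% of all genes tested), 3 were lower (beside 27.2%) and 10 passed in neither direction, with a median log2 fold change of 0.01. *Wfdc17*, a small secreted whey acidic protein of activated macrophages, was the highest, from 391 ± 47.9 to 2134 ± 196 CPM (SD, n = 3 each; log2 fold change 2.45, SE 0.112, adjusted p = 1.44e-07 in edgeR). *Gm11423*, an antisense RNA, had the lowest value, from 2.05 ± 0.317 to 0.377 ± 0.584 CPM (log2 fold change -2.45, SE 1.06, adjusted p = 0.0741 in edgeR), and passed only when LIP library 3 was left out (-5.60, adjusted p = 0.000756 in edgeR) or in the settings given in the closing section. The next genes were picked after their values had been seen. *Gm20234* overlaps *Slfn2* by 4927 bases on the opposite strand and was higher in LIP (log2 fold change 1.63, adjusted p = 0.00162 in edgeR), though -0.25 with neutrophil scaling. Its 213 to 897 reads compare with at least 32785 for *Slfn2*, and without a statement on strand in the sources its reads and those of *Slfn2* cannot be told apart. *AI662270*, a non-coding RNA 8.422 kb beyond *Slfn3*, was lower (log2 fold change -1.02, adjusted p = 0.00105 in edgeR), and it was the nearest gene tested on that side of the cluster. Further out, the chemokine gene *Ccl6* was higher (log2 fold change 1.35, adjusted p = 2.66e-06 in edgeR), though -0.53 with neutrophil scaling.

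**Figure D5:**
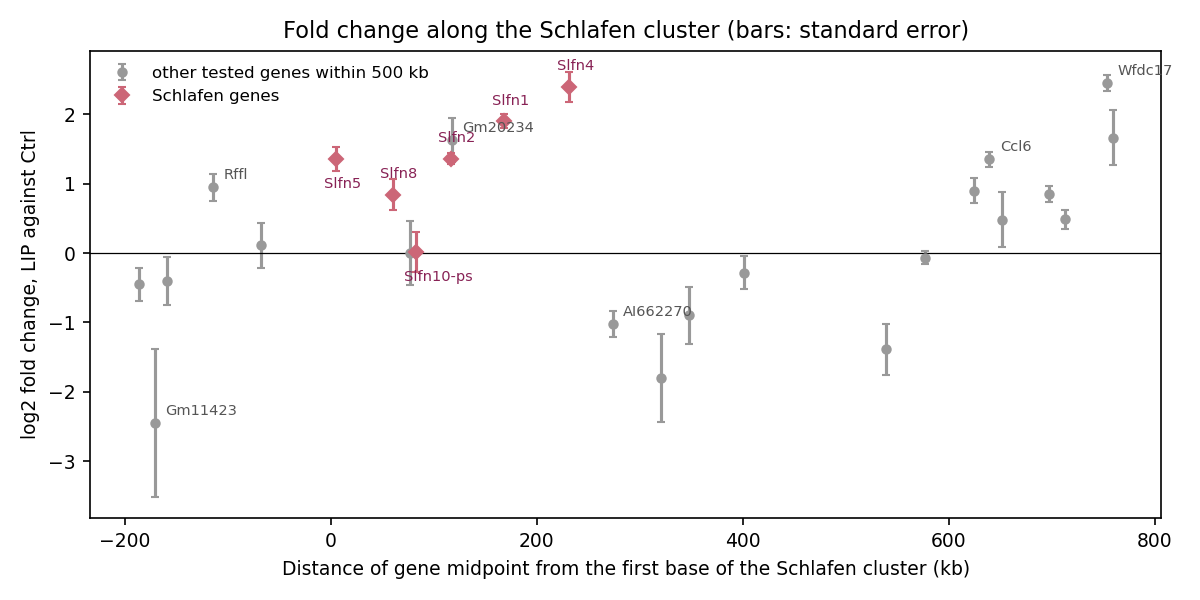
Log2 fold change (LIP against Ctrl, vertical axis) of genes tested along chromosome 11, by distance in kb of the gene's midpoint from the first base of the Schlafen cluster; error bars are standard errors, and red diamonds are the 5 members tested and *Slfn10-ps*. The 5 members sit between 0.84 and 2.39, with TMM, while the 21 other genes, *Slfn10-ps* included, range from -2.45 to 2.45 with a median of 0.01.

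Sequence shared between members limits how well reads could be assigned. In the longest GENCODE transcript of each gene, the share of 100-base runs found in a transcript of another gene was 0% for *Slfn1*, 0.128% for *Slfn2* and 0.285% for *Slfn4*. It was 3.62% for *Slfn3*, 3.71% for *Slfn8*, 3.90% for *Slfn9* and 6.85% for *Slfn5*. For *Slfn5* most of this lay in the antisense *Slfn5os*, which had at most 1 read. *Slfn9* shared 181 runs with *Slfn10-ps* and *Slfn8* shared 105 with it, so the values of these 3 are less certain than those of *Slfn1*, *Slfn2* and *Slfn4*. The annotation in the table places *Slfn1*, *Slfn2* and *Slfn3* among 338 genes of negative regulation of cell population proliferation, *Slfn8* and *Slfn9* among 35 genes with endoribonuclease activity and 179 of defense response to virus, and *Slfn2* and *Slfn4* among 166 of response to bacterium.

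Genes of the known inputs to Schlafens were mostly higher in LIP with TMM. All pathway lists here and below were chosen with earlier results of these data known. Their counts and the genes named from them are therefore a description. Scaling on neutrophil markers left 1 gene higher and 46 lower over all the pathway lists, beside 44 and 9354 of all 10440 genes tested. Of 15 genes of the interferon relay, from the receptors to their transcription factors and feedback inhibitors, 10 were higher, 2 lower and 3 passed in neither direction, with a median log2 fold change of 0.52. Over all genes tested, 26.5% were higher and 27.2% lower, with a median of -0.09. *Irf7*, the master factor of type I interferon genes, rose (log2 fold change 1.16, SE 0.126, adjusted p = 3.00e-05 in edgeR), as did *Usp18*, an interferon-induced brake on the receptor (1.14, SE 0.159, adjusted p = 0.000168). *Irf8*, a factor of monocyte, dendritic and B cells, fell (-1.15, SE 0.109, adjusted p = 1.07e-05). *Socs1*, a feedback inhibitor of JAK kinases, also fell (-0.55, SE 0.160, adjusted p = 0.0149), but not when LIP library 2 was left out (-0.46, adjusted p = 0.0582 in edgeR). *Irf7* and *Usp18* were lower, not higher, with scaling on neutrophil markers (-0.71 and -0.73).

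Of 12 genes of the Toll-like receptor relay 9 were higher (beside 26.5% of all genes tested), 0 lower (beside 27.2%) and 3 passed in neither direction, with a median log2 fold change of 1.35 beside -0.09. *Tlr4*, the receptor for lipopolysaccharide, went from 9.61 to 17.9 CPM in Ctrl to 80.7 to 85.2 CPM in LIP (log2 fold change 2.58, SE 0.216, adjusted p = 4.54e-06 in edgeR), a difference close in size to that of *Slfn4*. *Tlr2* was higher by 1.81 (SE 0.150, adjusted p = 4.14e-06), *Ly96*, the co-receptor of TLR4, by 1.11 (SE 0.227, adjusted p = 0.00210) and *Rela*, an NF-κB subunit, by 0.64 (SE 0.116, adjusted p = 0.000987). With scaling on neutrophil markers, *Tlr4* stood at 0.69 and was still called higher (adjusted p = 0.0225 in edgeR), while *Tlr2*, *Ly96* and *Rela* stood at -0.072, -0.77 and -1.24.

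Genes tied to what Schlafens act on went in both directions. Of 14 genes of tRNA cleavage and translation stress in the table, 10 were tested, of which 1 was higher (beside 26.5% of all genes tested), 6 lower (beside 27.2%) and 3 in neither direction, with a median log2 fold change of -1.02 beside -0.09. *Rnh1*, the inhibitor of angiogenin-type ribonucleases, was the one higher (log2 fold change 0.72, SE 0.134, adjusted p = 0.00119 in edgeR), though lower with neutrophil scaling (-1.16). *Rtcb*, the tRNA ligase, fell most (-1.47, SE 0.210, adjusted p = 0.000203). *Gcn1*, which senses stalled ribosomes, fell by 1.26 (SE 0.232, adjusted p = 0.00108), and *Ddx1*, a helicase of the ligase complex, by 0.97 (SE 0.267, adjusted p = 0.0110), the latter not passing without Ctrl library 3 (-0.77, adjusted p = 0.0647 in edgeR).

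Of 13 quiescence genes, 12 were tested, with 6 higher (beside 26.5% of all genes tested), 1 lower (beside 27.2%), 5 in neither direction and a median log2 fold change of 0.45 beside -0.09. *Cdkn2d*, an inhibitor of CDK4 and CDK6, was higher by 1.66 (SE 0.125, adjusted p = 2.22e-06 in edgeR), *Tob1* by 1.20 (SE 0.210, adjusted p = 0.000805) and *Btg1* by 0.72 (SE 0.0714, adjusted p = 1.47e-05), the last 2 being antiproliferative partners of the mRNA deadenylase. These 3 stood at -0.21, -0.69 and -1.16 with neutrophil scaling. *Foxo1*, a lymphocyte quiescence factor, fell by 2.28 (SE 0.113, adjusted p = 2.15e-07). The summed FPKM of B and T cell markers in LIP was 0.162 and 0.168 times that in Ctrl. The part of those cells in the *Foxo1* value was not tested. Of 11 proliferation genes only 3 were tested, since the others did not reach a mean of 1 FPKM, too few to set against those shares. Their median log2 fold change was -0.49, *Ccnd3* being higher (1.14, SE 0.0914, adjusted p = 3.35e-06, and -0.73 with neutrophil scaling) and *Ccnd2* and *Mcm5* lower (-0.49, SE 0.144, adjusted p = 0.0152, and -1.86, SE 0.388, adjusted p = 0.00238). *Ccnd2* did not pass without LIP library 1 (-0.37, adjusted p = 0.0560 in edgeR).

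The genes whose level over the 6 libraries was most like each member were found by Pearson's r of log2 CPM, as a description. All 6 points share the split into 2 groups, so r is high for many genes. It exceeded 0.95 for 1363 genes with *Slfn1*, 1349 with *Slfn2*, 1051 with *Slfn4*, 887 with *Slfn5* and 239 with *Slfn8*. The 3 genes nearest to *Slfn1* were *Mcemp1*, *Wfdc21* and *Rnf13* (r from 0.9996 to 0.9998), and those nearest to *Slfn2* were *Hdac4*, *Pdlim2* and *Gpx4-ps2* (0.9996 to 0.9997). *Mcemp1* is also 1 of the 21 mature neutrophil markers used for scaling. A high r does not mean a like size, as the log2 fold change was 0.85 for *Rnf13* and 1.901 for *Slfn1*. *Dck*, *Gpr141* and *Man2b1* were nearest to *Slfn4* (0.9991 to 0.9996), *Neat1* and *Numb* were among the nearest to *Slfn5* (0.9987 and 0.9963), and *Gm1966*, *Cast* and *Slc44a2* were nearest to *Slfn8* (0.9966 to 0.9992).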

How the data were processed

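Neutrophils were sorted from PB of Ctrl and LIP mice, and RNA extracted with TRIzol was made into Smart-seq2 libraries and sequenced paired-end on an Illumina NovaSeq. The submitters' processing notes name cutadapt 1.9, FastQC and GRCm38. The aligner, the counter and the use of strand are not given in the sources used here. What the authors deposited per gene is an unnormalized read count and an FPKM value, which the authors derived from the count by gene length and library total. Groups and replicate numbers came from the sample labels.

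The 10440 of 29097 genes whose FPKM averaged 1 or more across libraries were fitted with edgeR 4.0.16 in R 4.3.3 (quasi-likelihood test on the deposited counts, TMM factors of 1.10 to 1.14 in Ctrl and 0.887 to 0.902 in LIP, no replicate block), with Benjamini-Hochberg adjustment over all genes tested and calls at an adjusted p of 0.05. CPM values use the TMM factors. No pair of libraries within a group agreed within sampling noise (chi-square per gene 51.9 to 126), and the common biological coefficient of variation was 0.265. P-values measure the spread between pools, and PCR copies are counted as reads. The fits were tested on simulated counts.

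The members and gene lists were chosen with earlier results of these data known. Named are all members, other rows named Slfn, the highest and lowest neighbour within 500 kb, up to 2 highest and 2 lowest called genes of each list, and the 3 genes most like each member, of which 1 is not reported here. *Gm20234*, *AI662270* and *Ccl6* fall outside this rule and were named after their values had been seen. Alternatives were DESeq2 1.42.0, other scalings and filters, limma 3.58.1 on log2(FPKM + 1) and log2(FPKM + 0.1), a replicate block and fits that leave out 1 library. Promoters came from RefSeq (GRCm38.p6) and transcripts from GENCODE. 50 gene names repeat in the table.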

Additional observations from a re-analysis of the deposited data

How the results depend on the processing

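In edgeR with TMM, 5 members were higher and 0 lower, and leaving out each library in turn gave 5 and 0 each time. Scaling on mature neutrophil genes gave 0 higher and 3 lower, beside 44 and 9354 of all 10440 genes tested. That scaling turned the log2 fold change negative for *Slfn2* (-0.51), *Slfn5* (-0.53), *Slfn8* (-1.05), *Slfn10-ps* (-1.87), *Irf7* (-0.71), *Usp18* (-0.73), *Tlr2* (-0.072), *Ly96* (-0.77), *Rela* (-1.24), *Rnh1* (-1.16), *Tob1* (-0.69), *Btg1* (-1.16), *Cdkn2d* (-0.21), *Ccnd3* (-0.73), *Gm20234* (-0.25) and *Ccl6* (-0.53). A change of sign is not always a call: *Tlr2* (adjusted p = 0.682 in edgeR) and *Cdkn2d* (adjusted p = 0.108) did not pass under it. *Slfn10-ps* had no called difference with TMM (0.01). It lowers all genes by about the rise of its reference genes. The genes around the cluster, 8 higher and 3 lower, became 1 and 18 with that scaling, and those lower became 6 with library totals, 1 without a filter, 7 in limma with a pseudocount of 1 and 6 with 0.1. Leaving out 1 library gave 7 to 8 higher and 2 to 4 lower. The pathway lists, 27 higher and 11 lower, became 1 and 46 with neutrophil scaling, and 26 to 29 and 9 to 12 with 1 library left out. The cause of these shifts was not tested.

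*Gm11423* passed under neutrophil scaling (-4.29), in both limma fits (-1.38 and -3.23) and with the replicate block (-3.78). *Ccnd2* lost its call without a filter (-0.46, adjusted p = 0.0876 in edgeR).

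Same-numbered libraries are pools of different mice, and the correlation of their deviations from the group means was 0.02, 0.06 and 0.04 for numbers 1, 2 and 3. Between libraries of unlike number it ranged from -0.05 to 0.02. With 3 libraries in each group, these values cannot decide whether libraries of the same number shared a preparation. With the replicate block 5 members were higher, and 2724 genes were higher and 2822 lower in all, against 2766 and 2835 without it. *Slfn3* had between 8 and 126 reads in libraries of similar depth, so its values are uncertain, and the cause of that spread was not tested.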
